A study of Homo sapiens with 18 samples.

Results

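The 10 genes described here encode parts of the mitochondrial protein import machinery, and were taken by name from the deposited count table. They are TOMM20, TOMM22 and TOMM40 of the outer membrane translocase, the cytosolic cochaperone TOMM34, TIMM17A, TIMM17B, TIMM23 and TIMM50 of the inner membrane channel, TIMM44 of the import motor, and TIMM8A of the intermembrane space. The table lists 26485 gene symbols, of which 12832 passed a filter on low counts (CPM, the count scaled to the library total, above 1 in 3 libraries or more), and all 10 members passed it. RNAseq was done on SW620 cells, a human colon cancer cell line, in 18 libraries. Cells received a scramble siRNA or siRNA against Lonp1 (siLonp1), the protease of the mitochondrial matrix. Within each siRNA, 3 libraries came from cells left at 37 °C (Ctrl), 3 from cells heated to 42 °C for 1 h (HS), and 3 from cells given the same heat followed by 1 h of recovery at 37 °C (HS+REC). All 6 groups are thus one transfected line, without a group that received no siRNA. The methods of the study call the 3 libraries of a group independent biological replicates, without saying what separated them, so p-values cover the spread between repeats in this line.

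Nearly all mitochondrial proteins are made in the cytosol and must be carried across one or both mitochondrial membranes. Precursors are recognised by receptors of the TOM complex and pass through its pore, after which those with a presequence are handed to the TIM23 channel of the inner membrane. A motor built around the matrix chaperone mtHsp70 then pulls them into the matrix, where presequences are removed and where Lonp1 degrades damaged or unassembled proteins. The libraries report mRNA levels; import itself and the proteins were not measured in them.

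Library totals ran from 30815860 counts, in HS scramble replicate 3, to 47279297 counts, and scaling factors (TMM) from 0.934 to 1.06. HS scramble replicate 3 also correlated least with the other libraries of its group. LONP1 mRNA, the target of the silencing, fell by 3.43 on the log2 scale in Ctrl (standard error, SE, 0.078, edgeR adjusted p = 1.74e-19), to 0.0926 of its level with scramble, and stood at 0.0548 of that level in HS and 0.124 in HS+REC. The epithelial markers EPCAM, KRT8, KRT18, KRT19 and VIL1 were at medians of at least 327 CPM, whereas the intestinal markers CDX2 (19.6 CPM), CDH17 (5.1 CPM) and KRT20 (0.613 CPM) were low. Of the markers of cells that a pure line should lack, the leukocyte gene PTPRC and the fibroblast gene COL1A2 had a median of 0, GFAP, PECAM1 and ACTA2 were at medians of 0.0459, 0.184 and 0.673 CPM, and COL1A1 was at 17.1 CPM (8 to 34.6).

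In scramble cells at 37 °C the members spanned a wide range of levels per length of the reference transcript (CPM per kilobase). TOMM40, the pore of the TOM complex, was the most abundant at 156 ± 4.53 CPM per kilobase (SD, n = 3). TIMM23, the core of the inner membrane channel, followed at 115 ± 0.962, and TOMM20, a receptor that binds presequences, at 90.7 ± 0.749 CPM per kilobase. TOMM34 (83.1 ± 1.93), the central receptor TOMM22 (81.8 ± 2.06) and TIMM17B (81.1 ± 3.5) lay close together, with overlapping ranges of mean ± SD. TIMM44 (51 ± 2.34 CPM per kilobase) and TIMM17A (45.6 ± 1.92) stood lower, and TIMM8A (24 ± 1.08) and TIMM50 (19.6 ± 1.55) lowest. The place of TIMM50, a receptor of the channel that faces the intermembrane space, depends on the reference transcript of 5037 bases, the longest of the 10. In counts, the thinnest member was TIMM8A, with 722 to 1449 counts in a library, and the thickest TOMM20, with 8952 to 14533.

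Over the 6 groups the mean level of TIMM17B moved most, by 1.76-fold between its lowest group (HS scramble) and its highest (HS siLonp1), followed by TIMM44 at 1.61-fold. The other 8 members moved by 1.15-fold (TIMM50) to 1.37-fold (TIMM8A). No member passed a limit of an FDR of at most 0.05 together with a 2-fold change in any of the 11 comparisons made, against 13.3% of all genes tested that did so in at least 1. Genes were therefore called at an FDR of at most 0.05 at any fold change, with edgeR's quasi-likelihood test and Benjamini-Hochberg adjustment over all 12832 genes, and that test gives every edgeR adjusted p below. The plot of the members by library shows the value of each library.

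**Figure D1:**
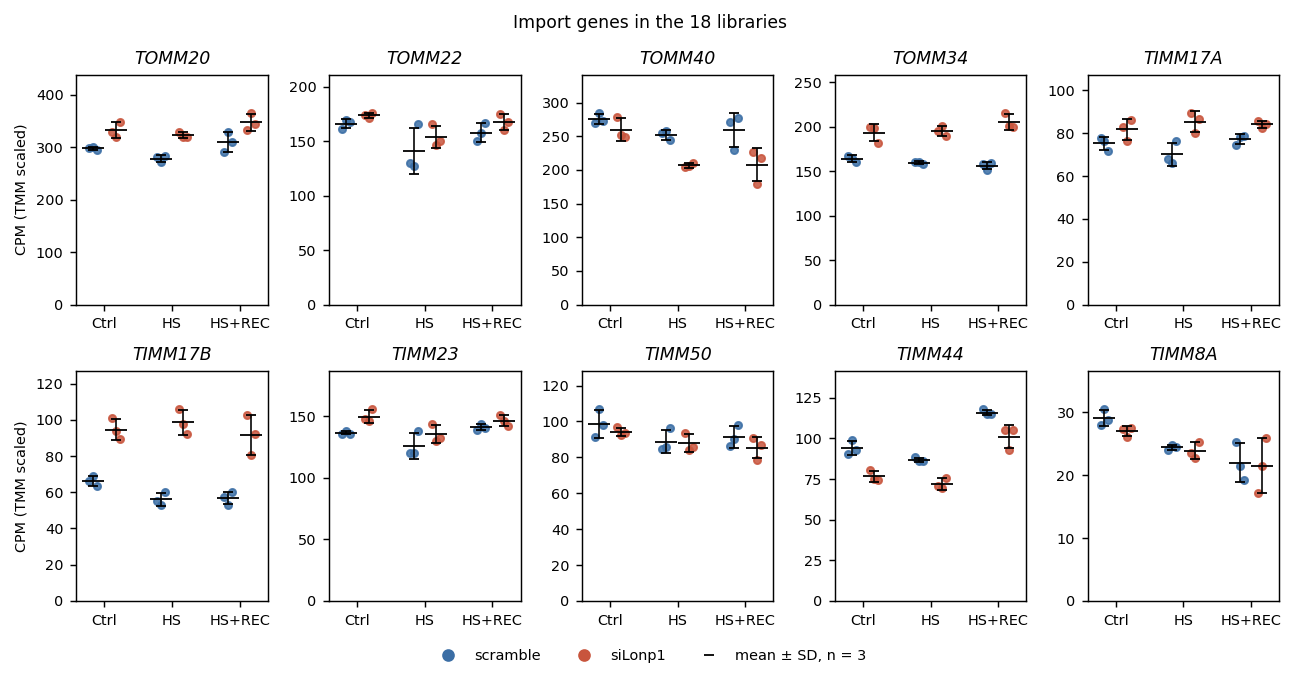
CPM (TMM scaled, linear axis from 0) of each of the 10 import genes in the 18 libraries. Points are libraries, blue for scramble and red for siLonp1, and bars give the mean ± SD of 3 libraries. The TIMM17B and TOMM34 points of siLonp1 lie above those of scramble in Ctrl, HS and HS+REC, and TIMM44 is highest in HS+REC for both siRNAs.

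The stretches of up to 250 bases before the start site are given for 3 members, from RefSeq on GRCh38.p14, 5′ to 3′ on the strand of the gene: TIMM44, whose mRNA changed in more comparisons than that of any other member, TOMM34, which rose after silencing in every condition, and TOMM20, the only member with 2 of the searched motifs. Capitals mark those motifs. The sequences lie at chr19:7943668-7943916, chr20:44960398-44960647 and chr1:235128838-235129087, all on the minus strand.
TIMM44: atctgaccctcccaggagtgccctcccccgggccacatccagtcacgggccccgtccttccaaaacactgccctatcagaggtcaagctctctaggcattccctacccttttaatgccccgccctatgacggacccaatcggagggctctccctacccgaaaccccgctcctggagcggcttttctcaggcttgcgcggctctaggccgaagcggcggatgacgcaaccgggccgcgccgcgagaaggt
TOMM34: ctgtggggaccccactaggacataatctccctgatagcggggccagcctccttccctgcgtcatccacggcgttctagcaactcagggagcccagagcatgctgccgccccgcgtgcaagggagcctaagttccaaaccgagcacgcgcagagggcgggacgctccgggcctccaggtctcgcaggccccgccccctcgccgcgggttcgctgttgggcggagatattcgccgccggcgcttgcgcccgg
TOMM20: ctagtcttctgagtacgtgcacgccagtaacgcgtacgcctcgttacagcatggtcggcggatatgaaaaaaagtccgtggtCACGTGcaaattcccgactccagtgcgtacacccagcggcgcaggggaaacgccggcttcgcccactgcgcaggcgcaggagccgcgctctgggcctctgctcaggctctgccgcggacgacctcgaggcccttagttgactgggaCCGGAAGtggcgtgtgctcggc

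In 250-base windows of this kind, matched for all 10 members, 6 short motifs were searched on both strands. For TOMM40, TIMM17B and TIMM50 the RefSeq start lies inside the GENCODE gene, so that these windows are not upstream of the annotated gene. The heat shock element cores TTCNNGAA and GAANNTTC, the letters TGATGNAA (CARE, bound by factors of the integrated stress response) and the letters GCGCATGC (part of the site of NRF1, a regulator of mitochondrial genes) were found in 0 of 10 members, and in 6.62%, 5.78%, 3.14% and 2.63% of 35116 promoters. The ETS motif CCGGAAG was found in TOMM20, from 22 to 16 bases before the start site (-22 to -16), and on the other strand in TIMM23 (-48 to -42), against 8.52% of all promoters. The E-box CACGTG was found in TOMM20 (-168 to -163), against 6.34% of all promoters. Absence from these windows says only that these letters are not there.

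The first question was how the import genes differed between siLonp1 and scramble cells. The sources used here do not say which siRNA sequence against Lonp1 was used for RNAseq. With siLonp1 as the only silencing treatment, other effects of the siRNA cannot be told apart from loss of Lonp1. TIMM17B rose most, by 1.43-fold in Ctrl, 1.76-fold in HS and 1.61-fold in HS+REC, and TOMM34 and TOMM20 also rose in all 3 conditions. TIMM44 fell in all 3, TOMM40 fell in HS and HS+REC, and TIMM17A rose in HS. In Ctrl, 3 of 10 members were higher and 1 lower, where 26.3% of all genes tested were called higher and 22.9% lower. In HS, 4 were higher and 2 lower (28.1% and 26.7% of all genes), and in HS+REC 3 were higher and 2 lower (26.8% and 27.3%). These shares are near those of all genes, so the count alone does not set the members apart. The median log2 fold change of the members was 0.094, 0.116 and 0.068 in Ctrl, HS and HS+REC, beside 0.009, 0.001 and -0.003 over all genes tested. For 35 other import genes, taken up below, the medians were -0.042, 0.021 and -0.041. The median above 0 was thus not shared by them in Ctrl and HS+REC.

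TIMM17B and TIMM17A are alternative subunits that sit beside TIMM23 in the inner membrane channel. The level of TIMM17B in Ctrl was 66.2, 69.2 and 63.5 CPM with scramble and 101, 93.6 and 89.1 CPM with siLonp1. In HS it was 55.2, 53.1 and 60 CPM with scramble and 106, 97.8 and 92 CPM with siLonp1, and in HS+REC 57.6, 53.2 and 59.9 against 102, 80.5 and 92.1 CPM. Every siLonp1 library lay above every scramble library of its condition. The log2 fold change was 0.51 in Ctrl (SE 0.078, edgeR adjusted p = 1.18e-05), 0.81 in HS (0.079, 1.64e-08) and 0.69 in HS+REC (0.079, 1.65e-07), and it was called with each library left out in turn. TIMM17B lies on chromosome X of hg38 from 48893447 to 48898143, on the minus strand, and 402 of its exonic bases are shared with PQBP1 on the opposite strand. The counting of strand is not given in the sources used here. PQBP1, looked up after the values of TIMM17B were seen, had log2 fold changes by siLonp1 of 0.06, 0.09 and -0.10, none of them called. TIMM17A (chromosome 1, 201955503 to 201970664) rose in HS, from 67.8, 66.3 and 76.5 CPM with scramble to 89.5, 80 and 86.7 CPM with siLonp1, without overlap (log2 fold change 0.28, SE 0.064, edgeR adjusted p = 0.000687). Its log2 fold change was 0.12 in Ctrl and 0.12 in HS+REC, neither called, although in HS+REC the siLonp1 libraries (82.4 to 85.5 CPM) all lay above the scramble libraries (74.7 to 78.9 CPM).

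TOMM34 is a cytosolic protein with tetratricopeptide repeats that binds the chaperones Hsp70 and Hsp90, encoded on chromosome 20 from 44942130 to 44960397. It stood at 167, 165 and 160 CPM in Ctrl scramble and at 200, 199 and 182 CPM in Ctrl siLonp1. In HS the values were 160, 161 and 158 CPM against 195, 201 and 190 CPM, and in HS+REC 158, 152 and 159 against 216, 201 and 200 CPM. The siRNA groups did not overlap in any condition, and the scramble libraries of all 3 conditions stayed within 152 to 167 CPM. TOMM34 rose by 0.24 on the log2 scale in Ctrl (SE 0.053, edgeR adjusted p = 0.000696), by 0.29 in HS (7.81e-05) and by 0.39 in HS+REC (1.64e-06), and it was called with each library left out in turn.

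The receptor TOMM20, on chromosome 1 from 235109341 to 235128837, had a smaller rise. It was at 298, 300 and 295 CPM in Ctrl scramble against 329, 319 and 349 CPM in Ctrl siLonp1. In HS it was at 281, 271 and 283 against 329, 320 and 320 CPM, and in HS+REC at 291, 330 and 310 against 333, 365 and 344 CPM. The groups were apart in each condition, in HS+REC only by the step from 330 to 333 CPM. The log2 fold change was 0.16 in Ctrl (SE 0.055, edgeR adjusted p = 0.0199), 0.21 in HS (0.0022) and 0.16 in HS+REC (0.0144). With library size as the only scaling it was 0.085, 0.12 and 0.095, and no condition was called. With only the groups compared in the fit the HS+REC call was lost (0.16, edgeR adjusted p = 0.0902). The Ctrl call was lost without Ctrl scramble replicate 3 (0.15) or Ctrl siLonp1 replicate 3 (0.12), and the HS+REC call without HS+REC scramble replicate 1 (0.12) or HS+REC siLonp1 replicate 2 (0.13).

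Lower levels after silencing were found for TOMM40, the pore of the outer membrane, and for TIMM44. TOMM40, on chromosome 19 from 44890569 to 44903689, was at 270, 285 and 272 CPM in Ctrl scramble and at 279, 252 and 248 CPM in Ctrl siLonp1, where the groups overlapped (log2 fold change -0.085, SE 0.076, edgeR adjusted p = 0.374). In HS the values were 255, 259 and 244 CPM with scramble and 204, 206 and 211 CPM with siLonp1, and in HS+REC 272, 230 and 277 against 227, 180 and 218 CPM. In these conditions the siLonp1 libraries were all below the scramble libraries. TOMM40 fell by 0.29 on the log2 scale in HS (SE 0.076, edgeR adjusted p = 0.00278) and by 0.32 in HS+REC (0.00116). The difference between these effects and that in Ctrl was not called (-0.20 for HS, adjusted p = 0.381, and -0.24 for HS+REC, adjusted p = 0.332, by edgeR).

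TIMM44, which docks mtHsp70 at the exit of the channel, lies on chromosome 19 from 7926718 to 7943667 and shares 93 exonic bases with a long non-coding RNA on the opposite strand. It was at 90.6, 98.9 and 92.6 CPM in Ctrl scramble and at 80.3, 75.1 and 74.3 CPM in Ctrl siLonp1. In HS it was at 88.3, 86 and 86.4 against 70.8, 69.2 and 75.8 CPM, and in HS+REC at 118, 115 and 115 against 105, 93 and 105 CPM. Each siLonp1 library was below each scramble library of its condition. The log2 fold change was -0.30 in Ctrl (SE 0.059, edgeR adjusted p = 0.000256), -0.27 in HS (0.000515) and -0.20 in HS+REC (0.00703). Without HS+REC siLonp1 replicate 2 the last was -0.14, with an edgeR adjusted p that rounds to 0.05 and lay above the threshold.

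For 4 members no silencing effect was called in the model of all 18 libraries, although some were under other settings. TOMM22, with 166 ± 4.19 CPM in Ctrl scramble against 174 ± 2.18 CPM in Ctrl siLonp1 (SD, n = 3), had log2 fold changes of 0.067, 0.13 and 0.085 in Ctrl, HS and HS+REC. TIMM23, the channel core, had 0.13, 0.10 and 0.052. Without HS scramble replicate 3, the library of lowest depth, the HS values became 0.25 for TOMM22 and 0.16 for TIMM23 and were called. With only the groups compared in the fit TIMM23 was called in Ctrl (0.12, edgeR adjusted p = 0.0352). TIMM50 (-0.066, -0.012 and -0.098) and TIMM8A (-0.11, -0.030 and -0.031) were below 0 in all 3 conditions without a call, which does not show that they are unchanged. With library size as the only scaling TIMM50 was called in HS+REC (-0.17, edgeR adjusted p = 0.0424).

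**Figure D2:**
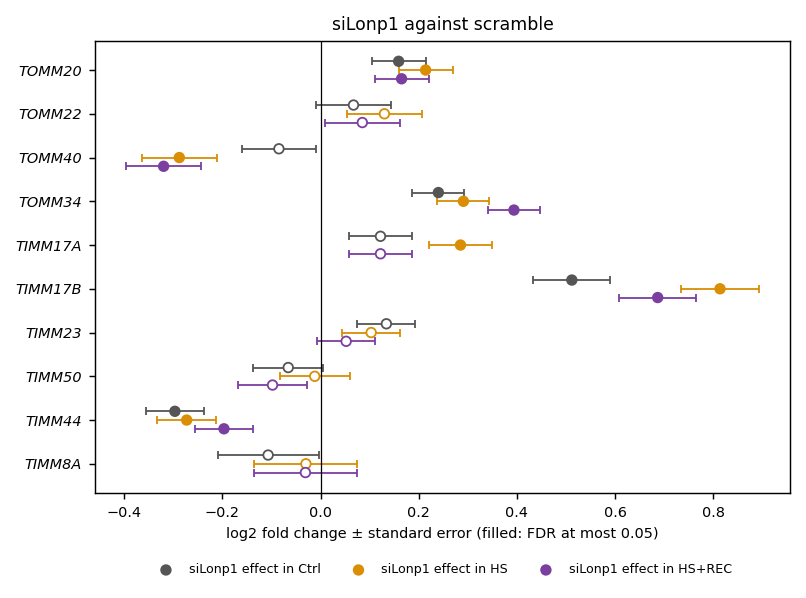
Log2 fold change of siLonp1 against scramble for the 10 import genes, with bars of 1 standard error, in Ctrl (grey), HS (orange) and HS+REC (purple). Filled points have an FDR of at most 0.05. TIMM17B lies furthest right in each condition, at 0.51, 0.81 and 0.69, and TIMM44 lies left of 0 in each.

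The second question was how the import genes responded to heat. Directly after HS few were called, all of them lower. In scramble cells TOMM22 and TIMM17B fell, so that 0 of 10 members were higher and 2 lower, beside 18.6% and 17.3% of all genes tested. In siLonp1 cells only TOMM40 was called: 0 were higher and 1 lower, beside 20.2% and 22.1% of all genes. In both arms these shares are near or below those of all genes, so the count alone does not set the members apart. All 10 members had log2 fold changes below 0 in scramble cells, with a median of -0.12 (-0.014 over all genes), and 7 of 10 in siLonp1 cells, with a median of -0.095 (0 over all genes). The comparisons of HS and of HS+REC in an arm share the 3 Ctrl libraries of that arm.

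TOMM22, on chromosome 22 from 38681957 to 38685421, was at 162, 169 and 168 CPM in Ctrl scramble and at 130, 128 and 166 CPM in HS scramble. The third HS library lay at the level of Ctrl, so the groups overlapped. TOMM22 fell by 0.24 on the log2 scale (SE 0.077, edgeR adjusted p = 0.0173). The call was lost without Ctrl scramble replicate 2 (-0.23) or 3 (-0.23), or without HS scramble replicate 1 (-0.18) or 2 (-0.17). In siLonp1 cells it was at 174, 172 and 176 CPM in Ctrl and at 166, 146 and 151 CPM in HS, without overlap, but not called (-0.17, edgeR adjusted p = 0.0699). It was called without HS siLonp1 replicate 1 (-0.23), with library size as the only scaling (-0.22) and with only the groups compared in the fit (-0.17, edgeR adjusted p = 0.021).

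TIMM17B in scramble cells went from 63.5 to 69.2 CPM in Ctrl to 53.1 to 60 CPM in HS, a fall of 0.24 on the log2 scale (SE 0.079, edgeR adjusted p = 0.0188). It was not called without Ctrl scramble replicate 2 (-0.21), HS scramble replicate 1 (-0.23) or HS scramble replicate 2 (-0.21). In siLonp1 cells its log2 fold change was 0.059 (adjusted p = 0.573 by edgeR). TOMM40 fell in siLonp1 cells by 0.33 on the log2 scale (SE 0.076, edgeR adjusted p = 0.00109), from 248 to 279 CPM in Ctrl to 204 to 211 CPM in HS, whereas in scramble cells its value was -0.13 (edgeR adjusted p = 0.204).

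Several other members stood close to the threshold after HS. TIMM8A, a chaperone of the intermembrane space, went from 27.9, 30.5 and 28.8 CPM to 24, 24.8 and 24.5 CPM in scramble cells, without overlap, at -0.25 on the log2 scale (SE 0.104, edgeR adjusted p = 0.0614). It was called by DESeq2 at -0.25 (adjusted p = 0.0467), and also with library size only, with no filter on low counts and with only the groups compared (-0.28 to -0.24). With only the groups compared it was called in siLonp1 cells too (-0.17, edgeR adjusted p = 0.0421). TIMM23 in siLonp1 cells had -0.15 (edgeR adjusted p = 0.0508) and was called by DESeq2 at -0.14 (adjusted p = 0.0354) and by edgeR without HS siLonp1 replicate 1 (-0.19) or with library size only (-0.19). In scramble cells TIMM23 was at 120 and 120 CPM in the first HS libraries and at 138 CPM in the third, which is the highest level in Ctrl. Without HS scramble replicate 3 its HS value moved from -0.11 to -0.16 and was called. TIMM50 in scramble cells had -0.15 and was called without Ctrl scramble replicate 1 (-0.21) or with library size only (-0.18).

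After 1 h of recovery the picture had turned for TIMM44. It was the only member higher than in Ctrl, in both siRNA arms, while TIMM8A was lower in both, TIMM17B lower in scramble and TOMM40 lower in siLonp1. In scramble cells 1 of 10 members was higher and 2 were lower, beside 21.8% and 20.5% of all genes tested, and in siLonp1 cells 1 was higher and 2 were lower, beside 24.6% and 26.6%. The median log2 fold change of the members was -0.071 in scramble and -0.039 in siLonp1, beside -0.003 and -0.003 over all genes. These shares are near or below those of all genes. With library size only, TIMM50 was called lower in both arms (-0.19 in scramble and -0.22 in siLonp1) and TOMM34 lower in scramble (-0.15).

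The level of TIMM44 in scramble cells, with the values listed above, ran from 90.6 to 98.9 CPM in Ctrl and from 115 to 118 CPM in HS+REC, a log2 fold change of 0.30 (SE 0.059, edgeR adjusted p = 0.000213). In siLonp1 cells it ran from 74.3 to 80.3 CPM in Ctrl and from 93 to 105 CPM in HS+REC, a log2 fold change of 0.40 (SE 0.059, edgeR adjusted p = 5.07e-06). Neither arm had overlapping groups. Against HS the rise was 0.42 in scramble (edgeR adjusted p = 8.39e-06) and 0.49 in siLonp1 (6.4e-07). All 4 of these calls were kept with each library left out in turn. The HS+REC siLonp1 libraries of TIMM44, at 93 to 105 CPM, thus reached the range of Ctrl scramble.

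TIMM8A, on chromosome X from 101345661 to 101348742, is the member with the fewest counts, and its recovery libraries spread widely. In scramble cells it was at 27.9, 30.5 and 28.8 CPM in Ctrl and at 25.3, 21.4 and 19.2 CPM in HS+REC, a fall of 0.41 on the log2 scale (SE 0.104, edgeR adjusted p = 0.00281). In siLonp1 cells it was at 27.3, 26.1 and 27.6 CPM in Ctrl and at 17.2, 21.5 and 25.9 CPM in HS+REC, a fall of 0.33 (SE 0.105, edgeR adjusted p = 0.0113). Both pairs of groups were apart, the second only by the step from 25.9 to 26.1 CPM. The siLonp1 call was lost without HS+REC siLonp1 replicate 1 (-0.19, edgeR adjusted p = 0.107).

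TIMM17B in scramble cells was at 57.6, 53.2 and 59.9 CPM in HS+REC, below each Ctrl library (-0.22, SE 0.079, edgeR adjusted p = 0.0272). This call was lost without Ctrl scramble replicate 1 (-0.22) or 2 (-0.19), or without HS+REC scramble replicate 2 (-0.17). TOMM40 in siLonp1 cells was at 227, 180 and 218 CPM, below each Ctrl library (-0.32, SE 0.076, edgeR adjusted p = 0.00108), and the value in scramble cells was -0.087 without a call.

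Between HS and HS+REC, 3 of 10 members were higher and 0 lower in scramble cells, beside 14.2% and 12.7% of all genes tested, and 1 was higher and 0 lower in siLonp1 cells, beside 16.3% and 15.6%. Besides TIMM44 these were TOMM20 (0.16, edgeR adjusted p = 0.0378) and TIMM23 (0.16, edgeR adjusted p = 0.0429) in scramble. TOMM20 was at 281, 271 and 283 CPM in HS and at 291, 330 and 310 CPM in HS+REC, and TIMM23 at 120, 120 and 138 and at 139, 144 and 140 CPM. With the replicate number as a block neither was called (edgeR adjusted p = 0.0507 for TOMM20 and 0.0539 for TIMM23), nor with library size as the only scaling (0.099 and 0.11), with no filter on low counts or with only the groups compared (0.15 to 0.16). Calls were also lost for TOMM20 without HS scramble replicate 1, 2 or 3 or HS+REC scramble replicate 2 or 3 (0.11 to 0.16), and for TIMM23 without HS scramble replicate 1 or 2 or any HS+REC scramble replicate (0.13 to 0.17). Without HS scramble replicate 3, by contrast, TOMM22 (0.28) and TIMM17A (0.19) were called as well, and without HS+REC siLonp1 replicate 3 TIMM8A was called lower in siLonp1 cells (-0.31). In HS scramble replicate 3 the levels of TOMM22, TIMM17A and TIMM23 lay above those of the other HS scramble libraries, and the part of its lower depth in this was not tested.

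**Figure D3:**
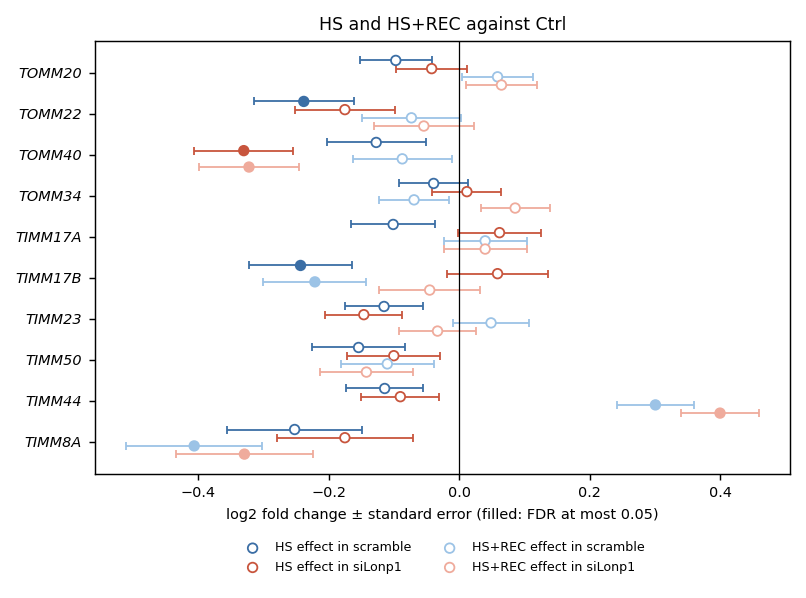
Log2 fold change against Ctrl for the 10 import genes, with bars of 1 standard error, after HS (dark) and HS+REC (pale) in scramble (blue) and siLonp1 (red) cells. Filled points have an FDR of at most 0.05. TIMM44 lies right of 0 only after HS+REC, at 0.30 and 0.40, and TIMM8A lies furthest left after HS+REC in both arms.

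Whether the heat response differed between siRNAs was asked of the interaction terms of the same edgeR model. No member was called, either for HS (1.87% of all genes tested) or for HS+REC (1.58%), and 1 member in each had an unadjusted p under 0.05. These were TIMM17B for HS, at 0.30 on the log2 scale (SE 0.111, edgeR adjusted p = 0.182), and TOMM40 for HS+REC, at -0.24 (SE 0.107, edgeR adjusted p = 0.332). DESeq2 also called 0 members in both. For TIMM44 the interaction was 0.024 with HS and 0.099 with HS+REC (SE 0.084 and 0.0835).

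The 2 forms of TIMM17 were also compared within each library, as the log2 ratio of TIMM17A to TIMM17B counts, which needs no scaling between libraries. In Ctrl scramble the ratio was 0.23, 0.14 and 0.17, and in Ctrl siLonp1 -0.28, -0.29 and -0.05. In HS it was 0.30, 0.32 and 0.35 with scramble and -0.24, -0.29 and -0.085 with siLonp1. In HS+REC it was 0.38, 0.56 and 0.40 with scramble and -0.26, 0.034 and -0.12 with siLonp1. TIMM17A thus had the more counts in each scramble library, and TIMM17B in each siLonp1 library apart from HS+REC siLonp1 replicate 2. Per kilobase of reference transcript (1650 bases for TIMM17A and 818 for TIMM17B) TIMM17B was the higher in every library, with group means of the log2 ratio from -1.22 to -0.57, so the sign depends on this choice whereas the differences do not.

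The mean log2 ratio of TIMM17A to TIMM17B differed between siLonp1 and scramble by -0.39 at 37 °C, -0.53 after HS and -0.56 after HS+REC, and the groups did not overlap in any of them. With 3 libraries against 3, the exact permutation test (two-sided) cannot give less than p = 0.1, which it gave in each (adjusted p = 0.14 over 7 tests). The mean ratio in scramble cells was 0.182 ± 0.048 in Ctrl, 0.322 ± 0.026 after HS and 0.443 ± 0.099 after HS+REC (SD, n = 3), and both heat conditions were apart from Ctrl (differences of 0.14 and 0.26, exact permutation p = 0.1 each). In siLonp1 cells the groups overlapped, with differences of 0.003 for HS (exact permutation p = 0.9) and 0.092 for HS+REC (exact permutation p = 0.5).

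TIMM23 has a near-identical copy, TIMM23B, whose reads may be split from its own in a way the sources used here do not state. TIMM23 lies on chromosome 10 from 45972489 to 46003742 and TIMM23B on the same chromosome from 49942049 to 49974850. TIMM23B took 16.4%, 15.6% and 16.3% of the counts of the pair in Ctrl scramble and 15.8%, 15.4% and 15.7% in Ctrl siLonp1. After HS the share was 21.3%, 23.1% and 20.3% with scramble and 20.2%, 20.8% and 19.6% with siLonp1. After HS+REC it was 18.5%, 18.9% and 17.2% with scramble and 14.8%, 17% and 16.1% with siLonp1. The share was higher in each HS library than in any Ctrl library. TIMM23B itself rose after HS by 0.40 on the log2 scale in scramble (edgeR adjusted p = 6.7e-05) and by 0.30 in siLonp1 (0.00106), and 945 of its exonic bases are shared with other genes, PARG on the opposite strand among them.

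**Figure D4:**
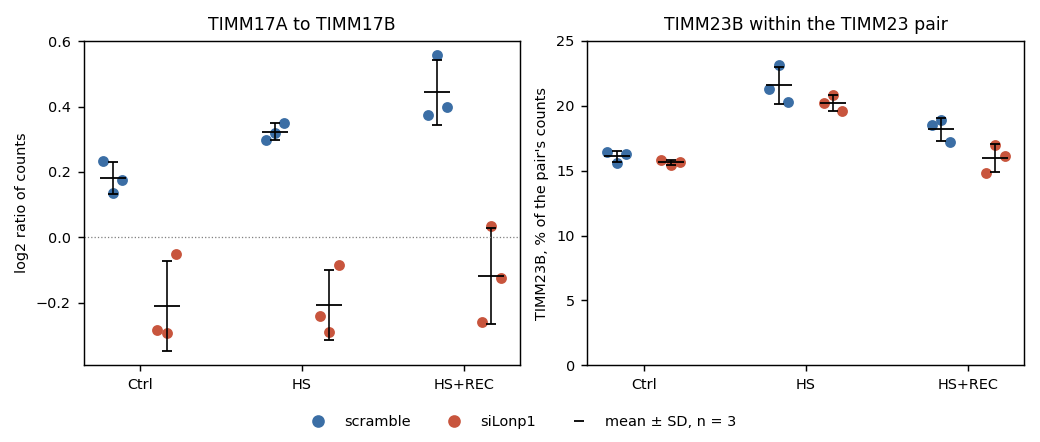
Left, log2 ratio of TIMM17A to TIMM17B counts in each library; right, share of TIMM23B in the counts of TIMM23 and TIMM23B together (%, axis from 0). Points are libraries, blue for scramble and red for siLonp1, with mean ± SD of 3 libraries. The left ratios of siLonp1 lie below those of scramble in each condition, and the right shares are highest in HS, at means of 21.6% and 20.2%.

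The levels of some members followed each other over the 18 libraries. Pearson's r of log2 CPM was 0.94 for TOMM34 and TIMM17B, 0.89 for TOMM22 and TIMM23, and 0.82 for TOMM20 and TIMM17A, and it was lowest, at -0.61, for TOMM20 and TOMM40. These values describe 18 libraries of 6 groups that share their siRNA and heat conditions, and are not tests.

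Of 36 other genes of the import pathway, listed by complex, 35 passed the filter on low counts and PAM16 did not. In HS 3 of 35 were higher and 14 lower in scramble, and 7 higher and 12 lower in siLonp1. In HS+REC 5 were higher and 6 lower in scramble, and 7 higher and 10 lower in siLonp1. By siLonp1, 0 were higher and 8 lower in Ctrl, 5 higher and 7 lower in HS, and 2 higher and 12 lower in HS+REC. In Ctrl 14 were called with library size only and 15 with only the groups compared, in place of 8. Without Ctrl scramble replicate 3, HS scramble replicate 1 or HS scramble replicate 2, 11 in place of 17 were called after HS in scramble. For HS+REC against HS, 5 were higher and 1 lower in scramble, and 6 higher and 3 lower in siLonp1. The shares of all genes called in each direction are those given above for the same comparisons.

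The import motor held the largest rises among these other genes after HS, in GRPEL2, a nucleotide exchange factor of mtHsp70. GRPEL2 measured 46.7 ± 1.53 CPM in Ctrl scramble, 74.4 ± 4.5 in HS scramble and 89.9 ± 9.8 CPM in HS+REC scramble (SD, n = 3). Its log2 fold change was 0.67 in HS (edgeR adjusted p = 7.57e-07) and 0.94 in HS+REC (2.22e-09) in scramble, and 0.88 and 0.76 in siLonp1, all called. GRPEL1, the other exchange factor, fell after HS by 0.19 on the log2 scale in scramble (edgeR adjusted p = 0.00774) and by 0.19 in siLonp1 (0.00576). The scramble call was lost without Ctrl scramble replicate 1 (-0.15).

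HSPA9, which encodes mtHsp70 and is the partner that TIMM44 binds, measured 795 ± 18.3 CPM in Ctrl scramble against 916 ± 47.9 CPM in HS+REC scramble. It rose after HS+REC by 0.21 on the log2 scale in scramble (edgeR adjusted p = 0.00282), a call lost with library size as the only scaling (0.12), and by 0.21 in siLonp1 (edgeR adjusted p = 0.00213). After HS its value was -0.097 in scramble, without a call, and -0.14 in siLonp1, called lower (edgeR adjusted p = 0.0369) but not called under several settings, such as no filter on low counts. Against HS, and so from these lower values, the rise was 0.30 in scramble and 0.34 in siLonp1. Its log2 fold changes by siLonp1 were -0.042, -0.084 and -0.041, none called. With library size as the only scaling the HS value was -0.18 and called (edgeR adjusted p = 0.00435). Of the motor genes only DNAJC15, a J-domain protein, had a called interaction of siLonp1 with heat, lost under several settings. It measured 35 ± 1.8 CPM in Ctrl scramble against 29.2 ± 1.16 CPM in Ctrl siLonp1, a fall of 0.26 on the log2 scale (edgeR adjusted p = 0.00184), and stood at 41.6 ± 2.23 and 44.5 ± 1.93 CPM in HS+REC.

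Among the genes of presequence processing, XPNPEP3, an aminopeptidase, rose from 22.8 ± 0.589 CPM in Ctrl scramble to 50.4 ± 4.99 CPM in HS+REC scramble, a log2 fold change of 1.14 (edgeR adjusted p = 2.46e-11) and the only one of the 35 past 2-fold in any comparison. In siLonp1 it went from 20.4 ± 1.57 to 38.7 ± 2.58 CPM (0.93, edgeR adjusted p = 9.15e-10). By siLonp1 XPNPEP3 was lower in HS+REC (-0.38, edgeR adjusted p = 0.000195), without a call in Ctrl or HS. MIPEP, an intermediate peptidase, fell after siLonp1 in every condition, from 46.1 ± 0.709 to 35.2 ± 2.15 CPM in Ctrl (-0.39, edgeR adjusted p = 3.08e-05), and by 0.49 in HS and 0.60 in HS+REC. OXA1L, the insertase of the inner membrane, was lower in HS+REC than in HS in scramble by 0.15 on the log2 scale (edgeR adjusted p = 0.0441), a call lost without any 1 of the libraries compared other than HS+REC scramble replicate 1 (-0.17 to -0.12), and with no filter on low counts, only the groups compared or the replicate block (-0.15). In siLonp1 the same comparison gave -0.22 (edgeR adjusted p = 0.00227). Against Ctrl OXA1L was lower after HS (-0.25 in scramble and -0.17 in siLonp1, both called). After HS+REC it was lower by more (-0.40 and -0.395, edgeR adjusted p = 1.8e-06 and 1.51e-06).

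At the outer membrane, TOMM40L, a paralog of TOMM40, fell after HS from 16.7 ± 0.649 to 11.6 ± 0.233 CPM in scramble (-0.52, edgeR adjusted p = 1.18e-05) and by 0.62 in siLonp1, and after HS+REC by 0.58 and 0.59. In the intermembrane space, CHCHD4, which drives the oxidative import of small proteins, fell after siLonp1 from 20.9 ± 0.466 to 15.8 ± 0.758 CPM in Ctrl (-0.40, edgeR adjusted p = 5.12e-05). CHCHD4 was also lower by siLonp1 in HS (-0.395, edgeR adjusted p = 6.02e-05) and in HS+REC (-0.37, edgeR adjusted p = 0.000103). TIMM10, a chaperone of the same family as TIMM8A, rose after siLonp1 in HS (0.30, edgeR adjusted p = 0.0041) and in HS+REC (0.22, edgeR adjusted p = 0.0311), the latter lost without HS+REC scramble replicate 1 (0.19) or HS+REC siLonp1 replicate 1 (0.17) or 3 (0.14), with library size only (0.15) or with only the groups compared (0.21). TIMM10B was lower after HS (-0.29 in scramble, edgeR adjusted p = 0.00109, and -0.235 in siLonp1, edgeR adjusted p = 0.00487). After HS+REC it was lower by 0.44 in scramble and 0.51 in siLonp1. By siLonp1 it was higher in HS (0.19, edgeR adjusted p = 0.0159), without a call in Ctrl or HS+REC.

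In the inner membrane, TIMM29, a subunit of the TIM22 complex that inserts carrier proteins, fell after HS from 12.1 ± 0.693 to 9.2 ± 0.527 CPM in scramble (-0.40, edgeR adjusted p = 0.00197) and from 10.9 ± 1.18 to 6.79 ± 0.426 CPM in siLonp1 (-0.68, edgeR adjusted p = 5.65e-06). It was higher again in HS+REC than in HS in siLonp1 by 0.75. By siLonp1 TIMM29 was lower in HS (-0.44, edgeR adjusted p = 0.000783), without a call in Ctrl or HS+REC. TIMM21, an accessory subunit of the TIM23 channel, was at 19.3 ± 0.989 CPM in Ctrl, 14.8 ± 0.723 in HS and 20 ± 0.369 CPM in HS+REC in scramble. It fell after HS by 0.38 on the log2 scale (edgeR adjusted p = 0.000105) and was higher in HS+REC than in HS by 0.43 (edgeR adjusted p = 2.99e-05), at 0.051 against Ctrl without a call. In siLonp1 cells the HS value of TIMM21 was -0.095 without a call. There it was higher in HS+REC than in HS (0.29, edgeR adjusted p = 0.00193) and than in Ctrl (0.197, edgeR adjusted p = 0.0197). By siLonp1 TIMM21 fell by 0.39 in Ctrl and 0.24 in HS+REC, with -0.1 in HS without a call. ROMO1, associated with the same channel, rose after siLonp1 in HS (0.50, edgeR adjusted p = 0.000352) and in HS+REC (0.29, edgeR adjusted p = 0.0244), the latter lost without HS+REC scramble replicate 1 (0.22) or 2 (0.26), without HS+REC siLonp1 replicate 1 (0.24) or 3 (0.23), or with library size as the only scaling (0.22).

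**Figure D5:**
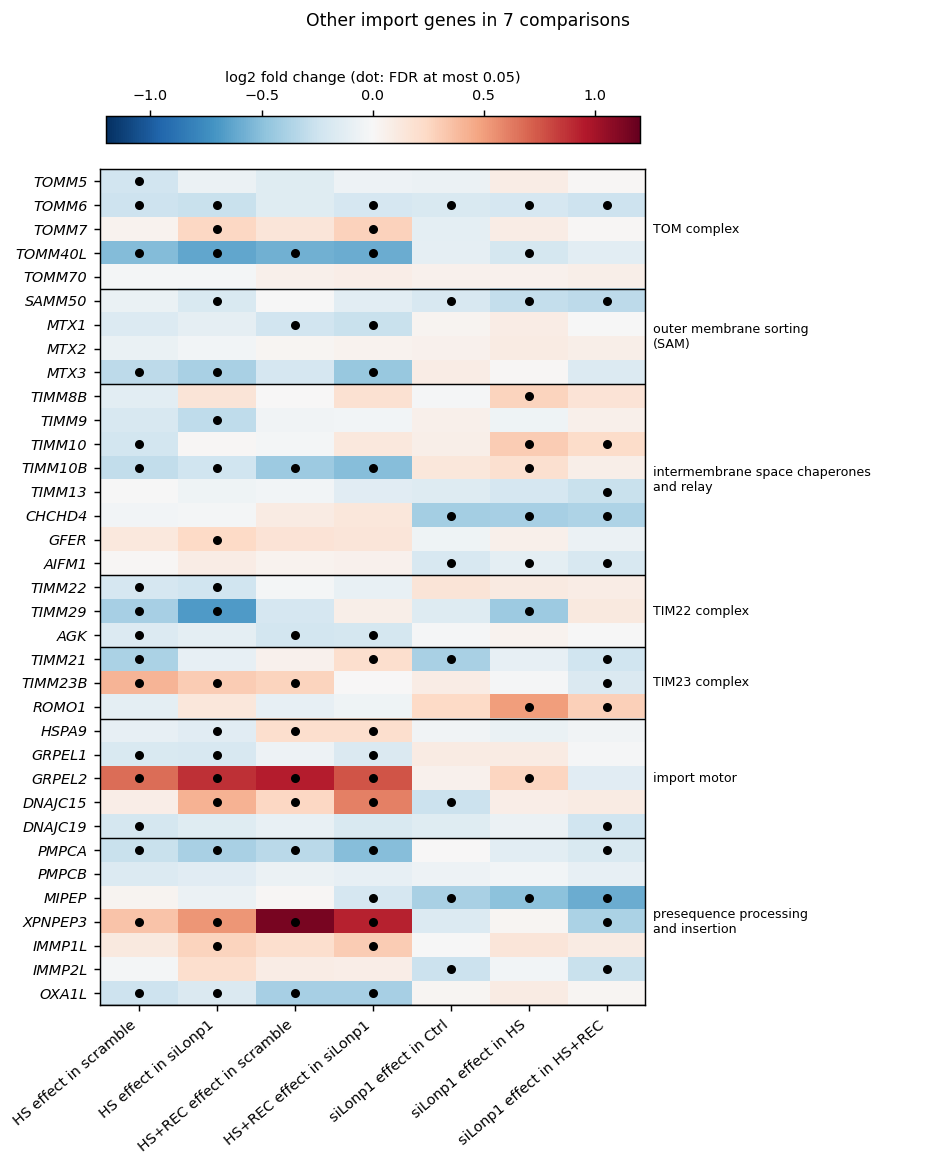
Log2 fold change of the 35 other import genes tested (rows, grouped by complex) in 7 comparisons (columns), from blue (lower) to red (higher). Dots mark an FDR of at most 0.05. XPNPEP3 and GRPEL2 are the reddest rows after HS+REC in both arms, at 1.14 and 0.94 in scramble, and TOMM40L is blue with a dot in all 4.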

How the data were processed

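RNAseq of 18 SW620 libraries (6 groups of 3) was used. The authors made stranded mRNA libraries, mapped the reads to hg38 with STAR 2.7.3a and used featureCounts to count reads per UCSC gene. The deposited values are raw counts per gene symbol, with no normalization. The strand setting, how reads that fit several genes were handled, and the annotation release are not given in the sources used here. No step for PCR duplicates is named, and the precision that depth gives covers counting error only. Columns were matched to samples by their names, and groups to the labels.

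The filter kept 12832 of 26485 genes (CPM above 1 in 3 libraries or more), and totals were 30815860 to 47279297 counts per library. Differences were tested with edgeR 4.0.16 (R 4.3.3): TMM factors, the quasi-likelihood test with 1 mean per group, all 18 libraries in the fit, a prior count of 0.125 for fold changes and Benjamini-Hochberg adjustment over all genes tested. The common biological coefficient of variation was 0.0658. The fit was tested on simulated counts. The members and lists were chosen with earlier results of these data known. The other genes named are, for each comparison, up to 2 with the largest rise and 2 with the largest fall among those called in the list, with TIMM23B, HSPA9 and GRPEL1. TOMM70 and TIMM29 stand under the older symbols TOMM70A and C19orf52. The ratio of TIMM17A to TIMM17B was tested by an exact permutation test in scipy 1.17.1. Positions and transcript lengths are those of GENCODE genes on hg38, and promoter sequences those of RefSeq on GRCh38.p14, where all 10 members matched. CPM values use library size times TMM factor.

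The alternatives were RLE factors or library size alone in place of TMM, a filter that kept every gene or one that asked for CPM above 1 in each library, DESeq2 1.42.0, fits restricted to the groups of a comparison, a block for the replicate number, FDR 0.01, a 2-fold limit, and fits that left out 1 library at a time. The same alternatives for genes outside the 10 were added after seeing the data.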

Additional observations from a re-analysis of the deposited data

Results flagged for a closer look

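The effect of heat on DNAJC15 differed between siLonp1 and scramble by the interaction term of the edgeR model, at 0.34 on the log2 scale for HS (standard error 0.0902, adjusted p = 0.0496) and 0.36 for HS+REC (standard error 0.0896, adjusted p = 0.0431). Both calls rested close to the threshold. Of the 12 fits that left out 1 of the libraries compared, the HS call was lost in 11 and the HS+REC call in 10, with values from 0.30 to 0.37 and from 0.31 to 0.40 over the 12. Neither was called with the replicate number as a block (adjusted p = 0.0712 and 0.0635) or with no filter on low counts, the HS call was lost with library size only (adjusted p = 0.0617) and the HS+REC call with only the groups compared (adjusted p = 0.0738). The effect of heat on LONP1 itself also differed, by -0.76 for HS (standard error 0.107, adjusted p = 0.000468) and by 0.43 for HS+REC (standard error 0.103, adjusted p = 0.0321). The HS+REC call for LONP1 was lost with the replicate number as a block (adjusted p = 0.0557), with only the groups compared (0.0737) and in 9 fits that left out 1 library (0.36 to 0.45). LONP1 in siLonp1 cells was at 19.4, 22.5 and 19.5 CPM in Ctrl, at 11.8, 11.6 and 11.8 CPM in HS and at 27.1, 25.6 and 28.9 CPM in HS+REC.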

How the results depend on the processing

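The silencing effects on TIMM17B and TOMM34 in all 3 conditions, on TIMM44 in Ctrl and HS and on TOMM40 in HS and HS+REC, and the recovery effects on TIMM44, were called under every alternative other than the 2-fold limit. The counts of members called were the most open to the processing, since values near the threshold moved across it. With a 2-fold limit 0 members were called in each comparison. After HS in scramble the count was 4 with library size only and 0 at FDR 0.01, in place of 2. After HS in siLonp1 it was 3 with library size only, 3 with only the groups compared and 2 with DESeq2, in place of 1. After HS+REC in scramble it was 5 with library size only, in place of 3. For HS+REC against HS in scramble it was 1 in place of 3 with library size only, no filter, only the groups compared, the replicate block and FDR 0.01. Library size only moved the median of all genes by -0.097 to 0.003 on the log2 scale.

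With each library left out in turn, the count of members called ran from 0 to 3 for HS in scramble, 1 to 3 for HS in siLonp1, 2 to 3 for HS+REC in each arm, 1 to 4 and 1 to 2 for HS+REC against HS in scramble and in siLonp1, 3 to 4, 6 to 8 and 3 to 5 for siLonp1 in Ctrl, HS and HS+REC, and stayed at 0 for both interactions.

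The direction turned only for values that were not called. With library size only these became, for HS+REC in scramble, -0.025 (TOMM20), -0.044 (TIMM17A) and -0.035 (TIMM23); for HS+REC in siLonp1, -0.015 (TOMM20), -0.040 (TIMM17A) and -0.075 (TIMM23B); for HS in siLonp1, -0.036 (TOMM34); for HS+REC against HS, -0.017 (TOMM40), -0.034 (TIMM17B) and -0.013 (TIMM50) in scramble and -0.024 (TOMM40) and -0.014 (GRPEL1) in siLonp1; and for siLonp1, -0.008 (TOMM22 in Ctrl), -0.003 (GRPEL1 in HS) and -0.019 (TIMM23 in HS+REC). With no filter they became -0.016 (TOMM40) and -0.007 (GRPEL1) for HS+REC against HS in siLonp1, 0.003 (TIMM50) for siLonp1 in HS, -0.014 (TIMM23B) for HS+REC in siLonp1, and -0.013 (TOMM20), -0.001 (TOMM22) and -0.019 (TIMM17A) for the interaction with HS+REC. With only the groups compared the last was -0.002.

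With each library left out in turn, other uncalled values crossed 0. For siLonp1 they ran from -0.059 to 0.038 (TIMM50), -0.074 to 0.003 (TIMM8A) and -0.059 to 0.025 (TIMM23B) in HS, and from -0.185 to 0.104 (TIMM8A), -0.068 to 0.003 (HSPA9) and -0.029 to 0.009 (GRPEL1) in HS+REC. After HS in siLonp1 TOMM34 ran from -0.03 to 0.036 and the log2 ratio of TIMM17A to TIMM17B from -0.057 to 0.082, and after HS+REC in siLonp1 TIMM17B ran from -0.131 to 0.04, TIMM23B from -0.047 to 0.045 and TIMM17A from -0.008 to 0.078. For HS+REC against HS the ranges were -0.016 to 0.068 (TIMM17B), -0.009 to 0.12 (TOMM40) and -0.01 to 0.089 (TIMM50) in scramble, and -0.07 to 0.104 (TOMM40), -0.067 to 0.013 (TIMM17A), -0.098 to 0.013 (TIMM50) and -0.005 to 0.039 (GRPEL1) in siLonp1. For the interaction with HS they were -0.007 to 0.107 (TIMM50), -0.016 to 0.06 (TIMM44), -0.004 to 0.183 (TOMM22) and -0.075 to 0.028 (TIMM23), and for that with HS+REC -0.047 to 0.038 (TIMM17A), -0.093 to 0.023 (TIMM50), -0.038 to 0.052 (TOMM20), -0.022 to 0.059 (TOMM22) and -0.078 to 0.209 (TIMM8A).

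The replicate numbers did not pair the libraries over the series as a whole, judged by the median correlation of deviations from the group means. This median was -0.0587 for the 45 pairs of libraries with the same number in different groups, and 0.037 for pairs of different numbers. Of the 45 pairs, 14 were correlated above 0.1 (-0.441 to 0.572), and 9 of 18 libraries correlated best with a library of their own number. In 1 comparison, HS+REC against HS in siLonp1, all 3 pairs were above 0.1 (0.334, 0.114 and 0.14), and there the block called the same number of members (1) and 4005 genes in place of 4092. The replicate block moved the counts of all genes called by factors of 0.75 to 0.984 and changed no count of members beyond that given above. The lowest count of a member in a library was 722, for TIMM8A.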
